A study of Mus musculus with 12 samples.

Results

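Lipid droplets store triglyceride inside cells, and this account follows 9 mouse genes whose proteins build, coat or fuse them: the perilipins Plin1, Plin2, Plin3, Plin4 and Plin5, the CIDE proteins Cidea and Cidec, and the assembly proteins Fitm2 and Bscl2. They were picked by symbol, and are 9 of the 32772 genes listed in at least 1 of the deposited count tables. All 9 were in both, among 30327 genes in the diet table and 30453 in the PCN table. The tissue was gonadal white fat of C57BL/6N mice, sequenced as 12 RNA libraries in 4 groups of 3. HFD PCN mice had eaten a high-fat diet and then received pregnenolone 16alpha-carbonitrile (PCN), a steroid ligand of the pregnane X receptor in mice, at 50 mg/kg by intraperitoneal injection once a day for 4 days. HFD Vehicle mice had the same diet and were injected on the same 4 days with 30% DMSO in corn oil. HFD mice ate the high-fat diet and Chow mice regular chow, and for both the labels give no injection. All mice were 6 weeks old when the diets began and stayed on them for 18 weeks, and no group carried a named allele. No label states outright that every library came from its own mouse. The p-values below therefore speak of the spread between libraries, which may be technical.

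A droplet forms between the leaflets of the endoplasmic reticulum, where seipin (Bscl2) and FIT2 (Fitm2) act, and then takes up coat proteins that decide how easily lipases reach the fat. Plin1 is the main coat protein of the large droplet of fat cells and holds back lipolysis until it is phosphorylated. Plin2 coats droplets in most other cell types, including lipid-laden macrophages, and Cidec lets small droplets pass their content to large ones, which gives white fat cells their single large droplet.

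Total counts per library ran from 11090117 to 27408092. The library HFD Vehicle 50 stood apart from the other HFD Vehicle libraries: across genes, its log2(CPM + 1), with CPM the counts scaled to a library total of 1000000, had a Pearson correlation of 0.925 and 0.913 with them, while they had 0.989 with each other. Mitochondrially encoded genes took 2.82% to 3.17% of counts in HFD PCN, 2.78% to 7.85% in HFD Vehicle, 2.30% to 2.74% in HFD and 7.30% to 29.6% in Chow. The source label names duodenum, whereas the series title names gonadal fat. Fabp4 and Adipoq, which mark fat cells, and the other adipocyte markers listed in both tables summed to 4501 CPM or more in every library, and the 5 intestinal epithelium markers in both tables to at most 3.79 CPM. Libraries held RNA of the whole tissue, so for every difference below fewer cells of a type and less RNA per cell cannot be told apart.

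The diet comparison asked what the high-fat diet changed against chow, and among the 9 genes the largest rise and the largest fall were both in coat genes. Plin2 was at 2495, 2591 and 2787 CPM in HFD 4, 30 and 38, against 423, 524 and 211 CPM in Chow 8, 17 and 19. Every HFD library lay far above every Chow library, and edgeR gave a log2 fold change of 2.54 with an SE of 0.26 (adjusted p = 1.0e-04). Plin4, the coat protein of small droplets in white fat cells, was at 1343, 1043 and 1105 CPM in HFD, against 5493, 7476 and 6470 CPM in Chow. In HFD it fell by 2.75 on the log2 scale with an SE of 0.27 (adjusted p = 7.71e-05 by edgeR), the largest fall of the 9 genes. Plin1 was at 388, 371 and 384 CPM in HFD, against 1102, 1395 and 1048 CPM in Chow. The HFD libraries lay close together and below all Chow libraries, and Plin1 fell by 1.90 on the log2 scale with an SE of 0.17 (adjusted p = 4.52e-05 by edgeR).

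Plin3, a coat protein made in nearly all tissues that moves from the cytosol onto new droplets, was at 138, 141 and 162 CPM in HFD, against 59.8, 50.7 and 27.1 CPM in Chow. Plin3 rose as Plin2 did, by 1.46 on the log2 scale with an SE of 0.18 (adjusted p = 2.73e-04 by edgeR). Plin5, best known from oxidative tissues such as heart and brown fat where it ties droplets to mitochondria, was low throughout, at 7.49, 5.51 and 5.41 CPM in HFD against 18.8, 15.5 and 23.1 CPM in Chow. Plin5 fell by 1.92 on the log2 scale with an SE of 0.26 (adjusted p = 3.81e-04 by edgeR), again with no overlap between the groups. Plin4, Plin5 and Plin3 lie in this order on the minus strand of chromosome 17 (GRCm38, 56100591 to 56109803, 56111601 to 56117596 and 56277476 to 56292873). In that annotation 1797 bases separate Plin4 from Plin5, which both fell, and 159879 bases separate Plin5 from Plin3, which rose.

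**Figure D1:**
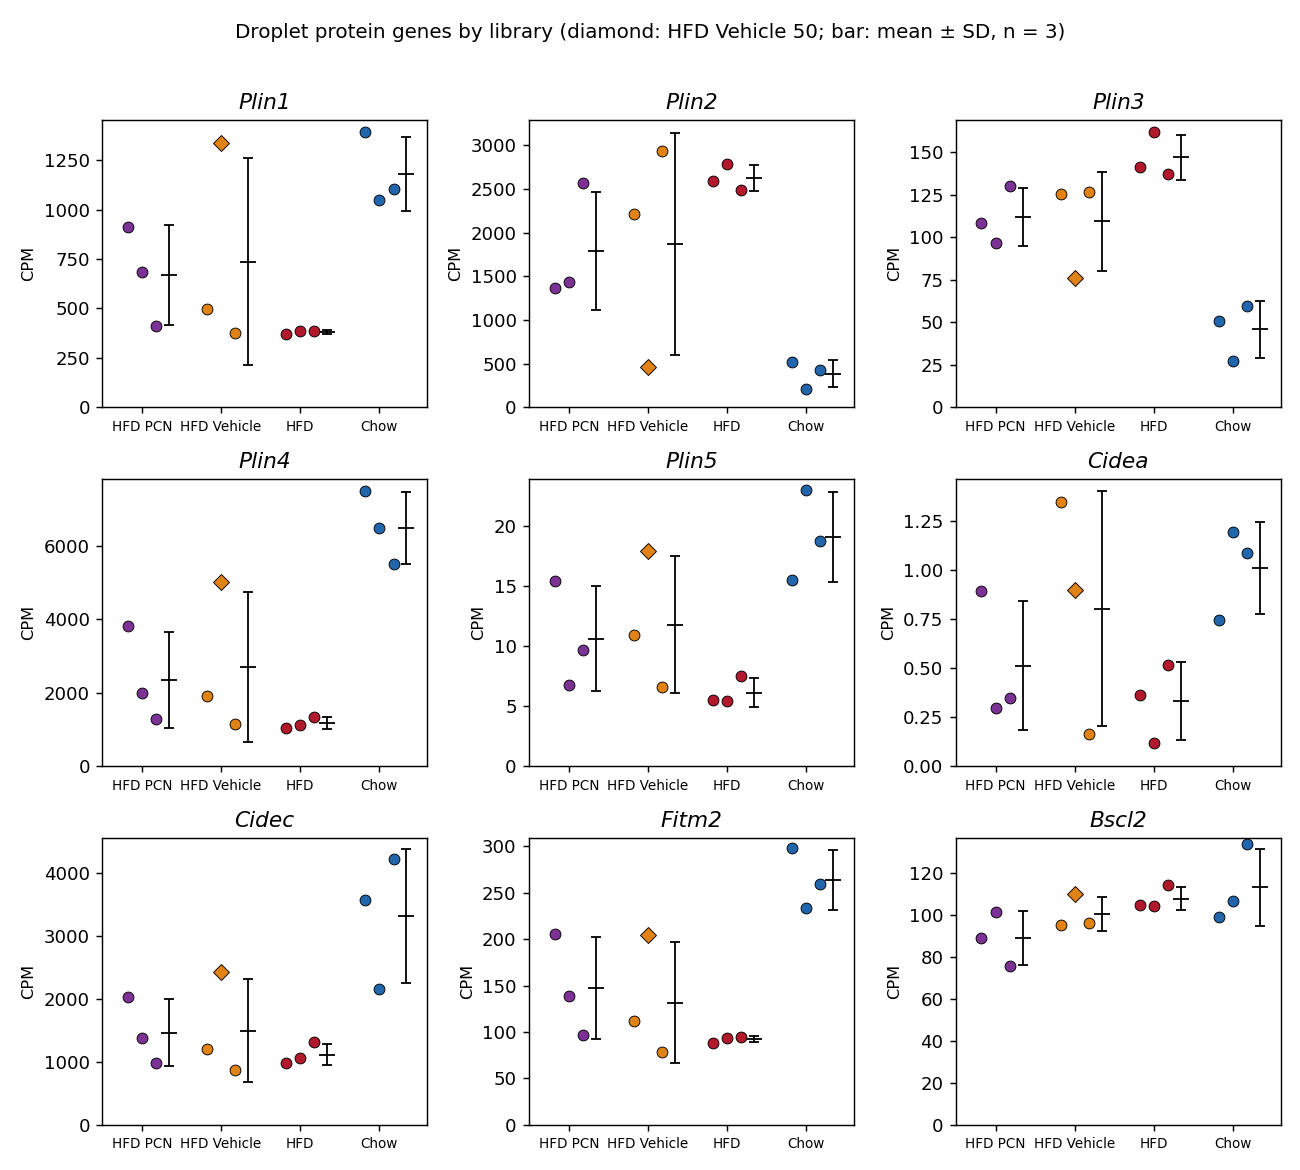
Level of each of the 9 genes in CPM (y axis, from 0) by group, with 1 point per library, a diamond for HFD Vehicle 50, and a black bar for the mean ± SD of the 3 libraries. The HFD libraries of Plin2 lie between 2495 and 2787 CPM, above all Chow libraries, while Plin1, Plin4, Plin5, Cidec and Fitm2 show the opposite order.

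The stretches before the start sites of the 4 most abundant members, per length and over all groups, are shown because these genes moved apart, Plin2 upward and Cidec, Plin1 and Plin4 downward in HFD. They come from RefSeq, build GRCm38.p6, minus strand, written 5′ to 3′, and leave out bases inside the gene as the count tables bound it. Capitals mark AGGTCA, the half-site that nuclear receptors of the PPAR type bind, or TTGCNNAA, a motif of the C/EBP type, on either strand.
Plin2, chr4:86670061-86670309: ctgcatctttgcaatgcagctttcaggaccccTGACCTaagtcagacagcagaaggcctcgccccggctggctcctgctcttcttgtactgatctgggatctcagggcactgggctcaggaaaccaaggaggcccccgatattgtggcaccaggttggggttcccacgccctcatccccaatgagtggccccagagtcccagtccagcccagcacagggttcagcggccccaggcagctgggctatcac
Cidec, chr6:113435761-113436010: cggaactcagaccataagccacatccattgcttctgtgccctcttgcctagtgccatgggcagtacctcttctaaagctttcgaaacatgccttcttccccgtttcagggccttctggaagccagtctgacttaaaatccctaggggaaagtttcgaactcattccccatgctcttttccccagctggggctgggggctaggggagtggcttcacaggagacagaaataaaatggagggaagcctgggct
Plin1, chr7:79732904-79733026: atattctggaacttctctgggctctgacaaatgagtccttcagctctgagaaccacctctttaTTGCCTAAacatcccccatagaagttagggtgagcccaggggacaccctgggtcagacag
Plin4, chr17:56109804-56110032: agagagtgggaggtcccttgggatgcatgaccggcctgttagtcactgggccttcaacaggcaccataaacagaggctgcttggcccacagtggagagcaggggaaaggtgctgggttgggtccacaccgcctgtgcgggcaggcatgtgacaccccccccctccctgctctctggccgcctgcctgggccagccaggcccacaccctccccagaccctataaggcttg

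Promoter windows were found for 8 of the 9 genes, 12 windows in all, since some genes have several start sites. In the 250 bases before a start, AGGTCA was present once each in windows of Plin2, Plin5 and Bscl2, and in 14% of all 32851 windows. TTGCNNAA was present in windows of Plin1, with 2 matches, and Cidec, in a window at another start site than the one printed, and in 9.56% of all windows. AGGTCA repeated in the same direction with 1 base between was in no window of these genes and in 0.0335% of all windows. A match says only that these letters are there, and its absence says only that they are not in this window.

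The genes of droplet fusion fell as well. Cidec (chromosome 6, 113424634 to 113435760) was at 1309, 981 and 1060 CPM in HFD, against 4228, 3568 and 2157 CPM in Chow. The Chow libraries spread widely, yet all stood above HFD, and Cidec fell by 1.80 on the log2 scale with an SE of 0.23 (adjusted p = 2.85e-04 by edgeR). Cidea, the CIDE protein that marks brown and beige fat cells in mice, was near the limit of detection, with 14, 10 and 2 counts in HFD 4, 30 and 38 against 15, 10 and 14 counts in Chow 8, 17 and 19. In CPM the HFD libraries had 0.517, 0.365 and 0.120 and the Chow libraries 1.09, 0.746 and 1.20, without overlap. The fit called Cidea lower in HFD (log2 fold change -1.74, SE 0.48, adjusted p = 0.0142 by edgeR), but not with all 12 libraries in one fit (adjusted p = 0.0624), and leaving out 1 library at a time gave adjusted p-values up to 0.0496. Ucp1, the uncoupling protein of brown fat, had 21 counts over the HFD group and 4 over the Chow group, and Cideb, the liver and gut member of the family, had 9 counts over the HFD group and 1 over the Chow group.

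The assembly genes differed from each other. Fitm2 (chromosome 2, 163466379 to 163472629), a membrane protein of the endoplasmic reticulum needed for droplets to bud, was at 94.5, 88.6 and 93.7 CPM in HFD, against 259, 298 and 234 CPM in Chow. Fitm2 fell by 1.78 on the log2 scale with an SE of 0.12 (adjusted p = 1.83e-05 by edgeR), the smallest adjusted p of the 9 genes. Bscl2 (chromosome 19, 8837467 to 8848683), the gene of seipin, was at 114, 105 and 104 CPM in HFD, against 134, 98.7 and 106 CPM in Chow. The groups overlapped and the test did not call it (log2 fold change -0.33, SE 0.13, edgeR adjusted p = 0.0563). The call turned with the processing: adjusted p = 0.0243 with upper quartile scaling in edgeR, 0.0465 with a filter of 1 CPM and 0.0113 without Chow 17. Of its exon bases 10.8% are shared with Gng3 on the other strand, and the sources used here do not state whether counting used strand, so its counts may hold reads of Gng3. Fitm2 shares 5.72% of its exon bases with 2310001K24Rik.

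In all, 2 of the 9 genes rose and 6 fell in HFD. Of all 16216 genes tested 59.8% were called, 29.8% higher and 30% lower, and the members' count stands beside that background. The libraries of HFD and Chow did not overlap in 8 of the 9 genes and in 68.5% of all genes. The median log2 fold change was -1.78 over the 9 genes and -0.03 over all genes. The authors' deposited table gave the same 2 and 6 genes an adjusted p under 0.05. With 1 library left out in turn, 8 or 9 genes were called, and without Chow 19, the library with the largest share of mitochondrial counts, 8. Upper quartile scaling moved the median of all genes to -0.13 and left the direction of each of the 9 genes as it was.

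Set per kilobase of exon, so that genes can be compared with each other, the order of the 9 genes differed between the diets. In HFD the highest mean levels were those of Plin2, at 747 ± 42.3 CPM per kb, and Cidec, at 602 ± 92.0 CPM per kb (SD, n = 3 each). Plin4 followed at 201 ± 27.5, then Plin1 at 81.9 ± 1.84 and Plin3 at 38.9 ± 3.51 CPM per kb, and the libraries of no neighbouring pair in this order overlapped. In Chow, Cidec led at 1787 ± 570 CPM per kb with Plin4 at 1122 ± 172. Their ranges overlapped, but within each of the 3 Chow libraries Cidec was the higher. Plin1 stood at 254 ± 40.1 and Plin2 at 110 ± 45.4 CPM per kb, with the range of Plin2 overlapping that of Fitm2 at 66.4 ± 8.16 CPM per kb. Within each of the 3 Chow libraries Plin2 was above Fitm2. Among 27999 genes with a length, Plin2 ranked 32 in HFD and 181 in Chow by mean level per kb, while Plin1 ranked 434 in HFD and 69 in Chow.

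Plin2 held the largest share of perilipin mRNA in HFD and Plin4 in Chow. Plin2 made up 66.6%, 71.1% and 71.3% of the summed perilipin level per kb in HFD 4, 30 and 38, against 9.04%, 8.45% and 4.23% in Chow 8, 17 and 19. Plin4 made up 21.8%, 17.4% and 17.2% in HFD, against 71.3%, 73.4% and 78.7% in Chow. The sum of all 5 perilipins was 1072 ± 37.7 CPM per kb in HFD and 1507 ± 227 CPM per kb in Chow (SD, n = 3 each).

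**Figure D2:**
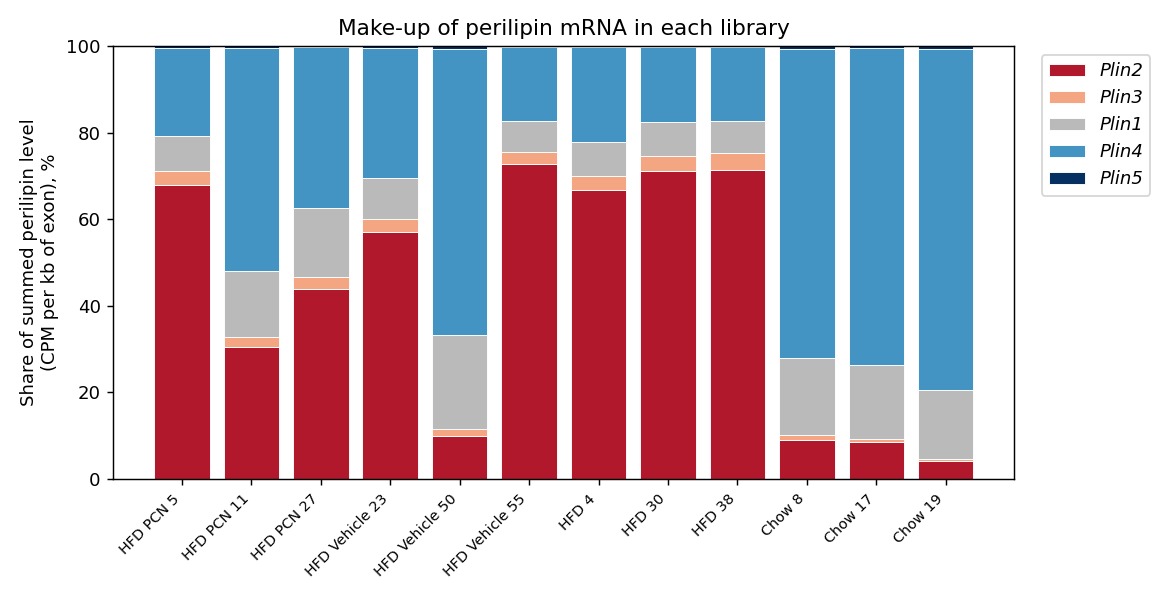
Share of each perilipin in the summed perilipin level (CPM per kb of exon), in percent, as 1 stacked bar per library, ordered by group. Plin2 fills 66.6% to 71.3% of the HFD bars and 4.23% to 9.04% of the Chow bars, and HFD Vehicle 50 has 9.91%.

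Ratios of 2 genes within a library do not depend on how libraries are scaled. There were 6.43, 6.98 and 7.26 Plin2 counts per Plin1 count in HFD 4, 30 and 38, against 0.384, 0.375 and 0.202 in Chow 8, 17 and 19. The mean log2 ratio was 4.48 higher in HFD (exact two-sided permutation test, p = 0.1, the smallest that 3 against 3 libraries allow). Plin4 per Plin1 was 3.46, 2.81 and 2.88 in HFD, against 4.98, 5.36 and 6.17 in Chow, a log2 difference of -0.85 (exact permutation p = 0.1), with every HFD library below every Chow library. Cidec per Plin1 was 3.37, 2.64 and 2.76 in HFD, against 3.84, 2.56 and 2.06 in Chow, and the groups overlapped (log2 difference 0.10, exact permutation p = 0.8). Of 6 such tests, 3 for diet and 3 for PCN, the smallest adjusted p was 0.3.

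The genes that work beside these proteins were read from lists. For these lists and the cell markers below, the background in HFD over Chow is 59.8% of 16216 genes called, 29.8% higher and 30% lower. Of 8 lipolysis enzymes and cofactors at the droplet, 7 fell and 1 rose in HFD (median log2 fold change -1.75). Lipe, the hormone-sensitive lipase, averaged 422 ± 48.1 CPM in the HFD group and 1567 ± 206 CPM in the Chow group (SD, n = 3 each). Pnpla2, the triglyceride lipase ATGL, averaged 406 ± 36.6 CPM in the HFD group and 1256 ± 305 CPM in the Chow group. Ces1d, a lipase of the droplet and endoplasmic reticulum, fell by 3.44 on the log2 scale. The gene that rose was Hilpda, an inhibitor of ATGL, averaging 47.7 ± 2.83 CPM in the HFD group and 8.91 ± 1.48 CPM in the Chow group. G0s2, another ATGL inhibitor, named after its values were seen, fell by 1.88 on the log2 scale.

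Of 15 tested genes of droplet formation and endoplasmic reticulum contacts 4 rose, 6 fell and 5 did not pass (median -0.31). Lpin1, a phosphatidic acid phosphatase, averaged 268 ± 24.3 CPM in the HFD group and 892 ± 49.8 CPM in the Chow group. Dgat1, which makes triglyceride, fell by 1.35 on the log2 scale. Pcyt1a, the enzyme of phosphatidylcholine synthesis that binds growing droplets, averaged 188 ± 6.76 CPM in the HFD group and 70.2 ± 17.5 CPM in the Chow group, and Spast, which severs microtubules and can sit on droplets, rose by 0.64 on the log2 scale. Fitm1, the muscle relative of Fitm2, had 7 counts over the HFD group and 3 over the Chow group and was not tested.

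Of 13 other droplet surface proteins 5 rose, 5 fell and 3 did not pass (median -0.13). Mettl7a1 fell by 1.68 and Aifm2 by 1.18 on the log2 scale, while Lpcat1, a phospholipid enzyme, rose by 0.76 and Aup1 by 0.51. Among 10 transcriptional regulators of perilipin and CIDE genes 7 fell, none rose and 3 did not pass (median -1.01). Pparg, the receptor that drives fat cell formation and many droplet genes, averaged 111 ± 5.57 CPM in the HFD group and 245 ± 74.3 CPM in the Chow group. Ppara, its relative in oxidative tissues, averaged 3.51 ± 0.605 CPM in the HFD group and 12.6 ± 0.307 CPM in the Chow group, and Ppard and their partner Rxra fell by 1.72 and 1.05 on the log2 scale.

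Markers of other cells moved with the diet too. All 10 macrophage markers rose, with a summed level of 6738 to 7411 CPM in HFD and 350 to 1273 CPM in Chow. Among the 10 markers of lipid-laden macrophages, 9 rose, and Lpl, which fat cells also make, did not pass. All 10 summed to 14111 to 15056 CPM in HFD and 4417 to 7527 CPM in Chow, of which Lpl alone made up 30.6% to 35.2% in HFD and 93.9% to 96.5% in Chow. Without Lpl, a choice made after seeing the data, the other 9 summed to 9142 to 10454 CPM in HFD and 156 to 460 CPM in Chow. Of 12 adipocyte markers 11 fell and 1, Lep, did not pass, and the 8 listed in both tables summed to 5620 to 6845 CPM in HFD and 9420 to 15476 CPM in Chow. As a percentage of that sum, Plin1 stood at 5.67% to 6.65% in HFD and 7.12% to 11.1% in Chow. Plin2 stood at 36.4% to 48.3% in HFD and 2.24% to 3.66% in Chow. These percentages depend largely on Fabp4 and Lep, which averaged 3824 and 1419 CPM in HFD, where the sum averaged 6077 CPM. In Chow they averaged 6407 and 1140 CPM, and the sum 13068 CPM. The median log2 fold change of the 12 markers was -2.36, so Plin1, at -1.90, fell less than that median. All 8 endothelial markers fell. Brown and beige markers summed to 22.4 to 27.5 CPM in HFD and 15.6 to 33.0 CPM in Chow, with 3 of 7 higher and 1 lower. Of 3 tested skeletal muscle markers, a tissue rich in Plin4 and Plin5, 1 rose and 1 fell, and their list summed to 20.2 to 37.1 CPM in HFD and 42.0 to 69.1 CPM in Chow. Of the mesothelial markers none of 6 tested passed, and of the intestinal ones 1 was tested and fell. The part of these cells in the changes of the 9 genes was not tested.

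**Figure D3:**
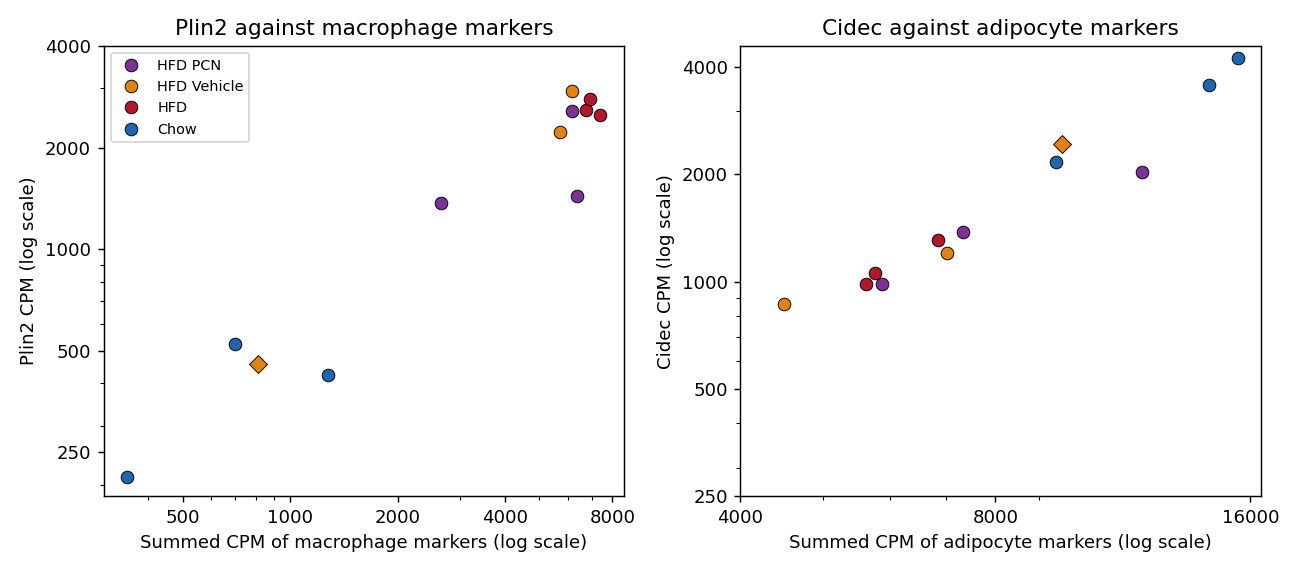
Left, Plin2 in CPM against the summed CPM of 10 macrophage markers; right, Cidec in CPM against the summed CPM of 8 adipocyte markers, 1 point per library on log axes, with a diamond for HFD Vehicle 50. HFD Vehicle 50 lies among the Chow libraries at 456 CPM of Plin2, and HFD PCN 27 has 1434 CPM of Plin2 beside 6366 CPM of macrophage markers.

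The PCN comparison asked what the drug changed against its vehicle in mice on the high-fat diet. No difference in the 9 genes was larger than the spread between libraries. Plin2 was at 2573, 1370 and 1434 CPM in HFD PCN 5, 11 and 27, against 2219, 456 and 2933 CPM in HFD Vehicle 23, 50 and 55. The lowest and the highest library both belonged to HFD Vehicle, and the fit gave a log2 fold change of -0.11 with an SE of 0.66 (adjusted p = 0.9999 by edgeR). Plin4 was at 1271, 3799 and 1985 CPM in HFD PCN, against 1918, 4999 and 1137 CPM in HFD Vehicle (log2 fold change -0.27, SE 0.68). Plin1 was at 411, 913 and 687 CPM in HFD PCN, against 495, 1336 and 375 CPM in HFD Vehicle (log2 fold change -0.21, SE 0.57). In each of these genes the library HFD Vehicle 50 was the extreme one, on the side of the Chow libraries.

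Cidec was at 986, 2032 and 1380 CPM in HFD PCN, against 1199, 2426 and 863 CPM in HFD Vehicle, and again the groups overlapped. Fitm2 was at 96.7, 206 and 139 CPM in HFD PCN, against 112, 205 and 78.5 CPM in HFD Vehicle. Plin3 was at 131, 109 and 96.7 CPM in HFD PCN, against 126, 76.0 and 127 CPM in HFD Vehicle. Plin5 averaged 10.6 ± 4.39 CPM in HFD PCN and 11.8 ± 5.74 CPM in HFD Vehicle, and Bscl2 88.8 ± 12.9 CPM in HFD PCN and 100.4 ± 8.20 CPM in HFD Vehicle (SD, n = 3 each). Cidea had 9, 16 and 5 counts in HFD PCN 5, 11 and 27, against 33, 10 and 3 in HFD Vehicle 23, 50 and 55. edgeR called 0 of the 9 genes, against a background of 0% of 16563 genes, where 281 genes and none of the 9 had an unadjusted p under 0.05. DESeq2 called 1 gene, limma-voom 0 and the authors' deposited table gave 2 an adjusted p under 0.05, and none of these was among the 9. The libraries of the groups did not overlap in 6.12% of all genes and in 0 of the 9. The median log2 fold change of the 9 genes was -0.21, against 0.00 over all genes. With 1 library left out, the median of the 9 ran from -0.41 without HFD PCN 11 to 0.24 without HFD Vehicle 50.

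Leaving out HFD Vehicle 50 turned the direction of several of these values, but leaving out other libraries turned directions too. With another library left out, the log2 fold change reached 0.38 for Plin2 and -0.23 for Fitm2. In HFD Vehicle 50, 8 of the 9 genes lay closer to the Chow mean than to the HFD mean on the log2 scale, and 6 lay within the range of the Chow libraries. Of these 6, Bscl2 at 110 CPM lay within the HFD range of 104 to 114 CPM too, and Cidea had only 10 counts. The macrophage markers of HFD Vehicle 50 summed to 810 CPM, against 5714 and 6164 CPM in HFD Vehicle 23 and 55. Without it, the log2 fold change with PCN was 0.58 for Plin1 (SE 0.34), 0.59 for Plin4 (SE 0.49), 0.47 for Cidec (SE 0.34) and 0.24 for Plin5 (SE 0.37), whereas with it these were -0.21, -0.27, -0.10 and -0.21. Fitm2 stood at 0.59 without it (SE 0.32) and 0.09 with it, and Plin2 at -0.57 (SE 0.35) and -0.11. The smallest edgeR adjusted p of the 9 genes was then 0.800, and again 0 genes were called by edgeR, with 898 at an unadjusted p under 0.05.

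Ratios to Plin1 did not separate the groups either. Plin2 per Plin1 was 6.26, 1.5 and 2.09 in HFD PCN 5, 11 and 27, against 4.48, 0.341 and 7.82 in HFD Vehicle 23, 50 and 55 (log2 difference 0.24, exact permutation p = 0.9). Without HFD Vehicle 50 the log2 difference was -1.13 (exact permutation p = 0.3). Cidec per Plin1 was 2.40, 2.22 and 2.01 in HFD PCN, against 2.42, 1.82 and 2.30 in HFD Vehicle. The log2 difference was 0.03 (exact permutation p = 0.9), and for Plin4 per Plin1 -0.08 (exact permutation p = 0.9). No gene of the droplet or cell type lists was called in this comparison. Mesothelial markers, of the lining of the fat pad, summed to 59.4 to 108 CPM in HFD PCN and 9.97 to 57.2 CPM in HFD Vehicle, and their part in the values of the 9 genes was not tested.

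**Figure D4:**
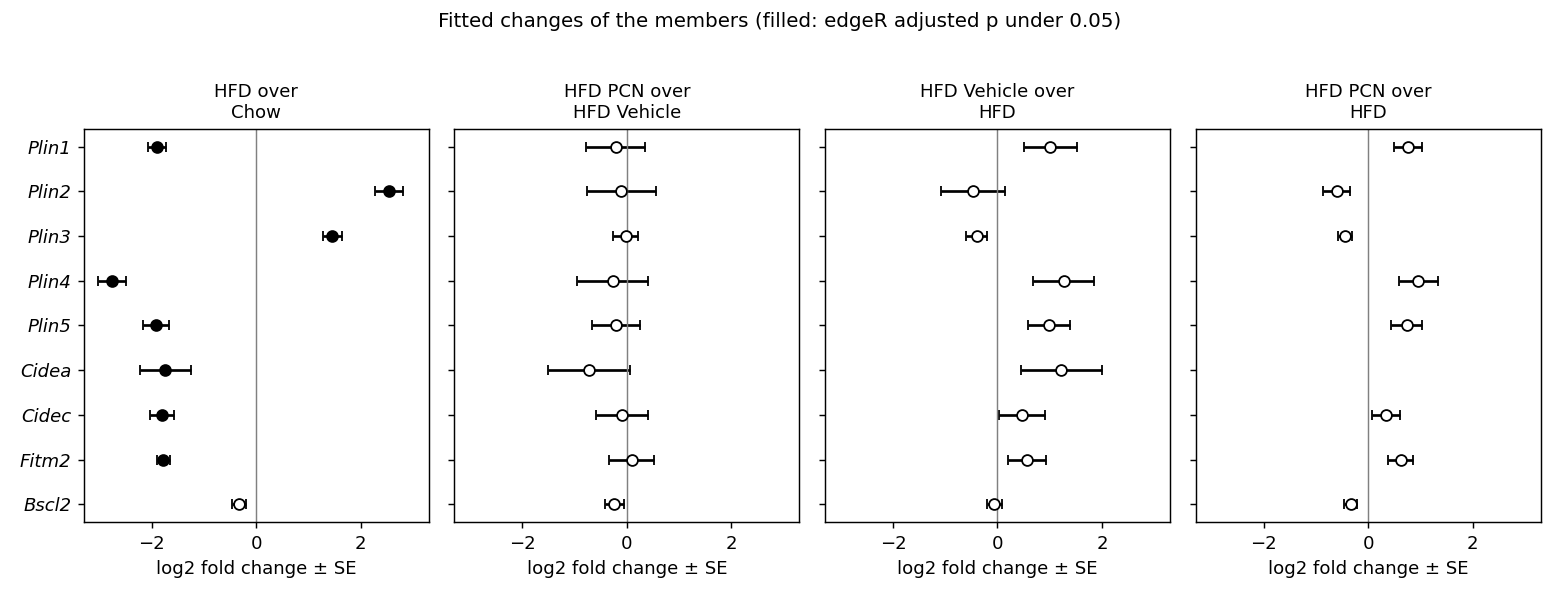
Fitted log2 fold change (x axis) ± SE of each gene in 4 comparisons, 1 panel each, filled where the edgeR adjusted p was under 0.05. Filled points stand only in the panel of HFD over Chow, -2.75 for Plin4 and 2.54 for Plin2 being the extremes, and Cidea was not tested in HFD PCN over HFD.

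Both injected groups were also set against the HFD libraries, over the 28008 genes in both tables. For the HFD libraries, which serve in the diet comparison too, the labels give no injection. HFD PCN thus differs from HFD in both PCN and injection, which cannot be told apart here. In HFD Vehicle over HFD, edgeR called 0 of the 9 genes, against 0% of 16781 genes, with 1639 genes at an unadjusted p under 0.05. The libraries did not overlap for 1 of the 9, Plin3, which was lower in HFD Vehicle, and for 28% of all genes. Plin5 alone of the 9 had such a p, of 0.0473 (log2 fold change 0.98, SE 0.40), and DESeq2 called 91 genes and limma-voom 0, none of them among the 9. Plin1 had a log2 fold change of 1.01 (SE 0.51) and Plin4 of 1.27 (SE 0.58). Without HFD Vehicle 50 these were 0.19 (SE 0.11) and 0.38 (SE 0.20), and edgeR called 172 genes, none of the 9. The remaining libraries HFD Vehicle 23 and 55 averaged 2576 CPM of Plin2, against 2624 CPM in HFD, and 435 CPM of Plin1, against 381 CPM in HFD.

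In HFD PCN over HFD, edgeR called 0 of the 8 genes tested, against a background of 4.32% of 16927 genes, 2.97% higher and 1.35% lower. After the scaling between libraries used in the fit, the libraries did not overlap for 4 of the 8 and for 37.4% of all genes. Of these 4, Plin1 was higher and Plin2, Plin3 and Bscl2 lower in HFD PCN. In CPM without that scaling Plin1, Plin3 and Bscl2 again did not overlap. Plin2 did, with 2573 CPM in HFD PCN 5 above 2495 CPM in HFD 4. Fitm2, which overlapped after scaling, then did not, at 96.7 CPM or more in HFD PCN against at most 94.5 CPM in HFD. The share of all genes without overlap was not counted in unscaled CPM. The log2 fold change was 0.77 for Plin1 (SE 0.26, adjusted p = 0.113 by edgeR) and 0.96 for Plin4 (SE 0.38, adjusted p = 0.141). It was -0.44 for Plin3 (SE 0.13, adjusted p = 0.0869 by edgeR) and -0.60 for Plin2 (SE 0.26, adjusted p = 0.175). Without HFD PCN 11 it was 0.48 for Plin1, 0.43 for Plin4, -0.42 for Plin3 and -0.44 for Plin2, and without HFD PCN 5 1.04, 1.28, -0.55 and -0.94 in the same order of genes. The HFD PCN libraries were not alike: in HFD PCN 5 all 9 genes lay closer to the HFD mean than to the Chow mean, in HFD PCN 27 8 of 9, and in HFD PCN 11 3 of 9. Without HFD PCN 5, edgeR called 5 of the 8, Plin1, Plin4 and Fitm2 higher and Plin2 and Plin3 lower, against 31% of 16688 genes. DESeq2 on all 6 libraries called 3, Plin1, Plin4 and Plin3, against 14.2% of 16932 genes. With any other single library left out none of the 9 was called, and edgeR then called 0 genes without HFD 4 or HFD 38, 1 without HFD 30, 4 without HFD PCN 27 and 670 without HFD PCN 11, against 5167 without HFD PCN 5. In the same comparison on all 6 libraries 3 of 8 adipocyte, 2 of 8 endothelial and 2 of 8 mesothelial markers were called higher and 2 of 7 brown and beige markers lower. None of 10 macrophage, 10 lipid-laden macrophage and 5 skeletal muscle markers was called. Of the droplet lists 1 gene was called, Nsdhl, a sterol synthesis enzyme, which was lower. The part of these cells was not tested.

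Macrophage markers differed among the HFD PCN libraries. The 10 general markers summed to 6153, 2644 and 6366 CPM in HFD PCN 5, 11 and 27, and the 9 markers of lipid-laden macrophages other than Lpl to 8119, 3394 and 2933 CPM. Of the 10 lipid-laden markers, Lpl included, 4 were lowest in HFD PCN 11 and 6 in HFD PCN 27, so the markers did not share 1 order. Spp1, a secreted phosphoprotein, was at 142, 26.7 and 175 CPM in these 3 libraries, and Ctsk, a lysosomal protease, at 406, 164 and 111 CPM. Lipa, the lysosomal acid lipase, was at 1339, 605 and 686 CPM and Trem2, a lipid-sensing receptor, at 390, 168 and 211 CPM. Plin2 stood at 2573, 1370 and 1434 CPM, and the part of these cells in it was not tested.

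Likeness to other genes was read over the 12 libraries. The genes whose log2 level was most like that of Plin2, among 9480 candidates, were Ran (Pearson's r 0.997), Atp6v1a (0.996) and Cpsf2 (0.996), and for Plin3 they were Rpl19, Sh3kbp1 and Septin9 (0.996 to 0.995). For Plin1 they were Kcns3 (0.994), Utrn and Ptprm, for Plin4 Apol6 (0.993), Lgals12 and Sik2, for Cidec Maob (0.989), Grina and Gnai1, and for Fitm2 Adig (0.991), Enc1 and Ctdspl. Plin5 was most like Nnat (0.961), and Bscl2 was least closely matched, with Fasn at 0.843. These values describe likeness over 12 libraries that include the difference between Chow and the high-fat groups, which enters each of them.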

How the data were processed

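The 9 genes, the gene lists and the tests were chosen with earlier results of these data known. Whole-number counts per gene, deposited by the authors in 2 tables of 6 libraries, were used as given. The tools named, per the submitters' processing notes, are HISAT2, HTSeq and DESeq2, and the build GRCm38 (mm10), without versions or roles. The deposited tables also hold the authors' log2 fold changes and p-values. Gene IDs without a symbol, 864 in the diet table and 886 in the PCN table, were kept. No per-sample column was unmatched (0), and no replicate pair agreed within sampling noise (chi-square per degree of freedom of 6.90 or more).

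CPM are counts scaled to a total of 1000000 in the library's own table. Each comparison was fitted on its 6 libraries over all genes in edgeR 4.0.16 (R 4.3.3) by quasi-likelihood, after TMM scaling and filterByExpr, and p-values were adjusted by Benjamini-Hochberg with 0.05 as the threshold. The SE is the size of the log2 fold change divided by the root of the F statistic. TMM factors ran from 0.772 (Chow 19) to 1.10. Fold changes are therefore not ratios of the CPM, and the counts of genes without overlap between groups use CPM after TMM scaling. DESeq2 1.42.0, limma-voom (limma 3.58.1), other scalings and filters, all 12 libraries in one fit, leaving out mitochondrial genes and leaving out each library were alternatives. The edgeR fit was tested on simulated data. Exon lengths are from GENCODE M21, where 98.2% of gene IDs had the tables' start and end. By rule all 9 genes were named, and of each list at most 4 that passed in HFD over Chow by smallest p. Marker lists are mostly given as sums and counts. Adipoq, Fabp4, Lep, Lpl, G0s2, Nsdhl and the counts of Ucp1, Cideb and Fitm1 are outside this rule and were chosen after their values were seen. Genes like a member are the 3 with the highest correlation of log2(CPM + 1), with a mean of at least 10 CPM and no predicted genes, for members of at least 1 CPM.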

Additional observations from a re-analysis of the deposited data

How the results depend on the processing

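No paired analysis was possible because each library carries its own number and the groups share none. In HFD over Chow none of the 9 genes changed direction under any alternative run, and with 1 library left out edgeR called 7953 to 10889 genes and 8 to 9 of the 9. Bscl2 passed with upper quartile scaling, with a filter of 1 CPM and without Chow 17. Cidea, with at most 15 counts in a library of this comparison, lost its call with all 12 libraries in one fit. The Cidec to Plin1 log2 difference ran from -0.11 to 0.34 with 1 library left out.

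In HFD PCN over HFD Vehicle DESeq2 called 1 gene and 2 genes passed in the authors' deposited table, against 0 in edgeR. limma-voom turned the log2 fold change of Plin2 to 0.29 and of Plin3 to 0.0087, and the cause was not tested. With 1 library left out the values ran from -0.55 to 0.58 for Plin1, -0.57 to 0.38 for Plin2, -0.22 to 0.090 for Plin3, -0.80 to 0.59 for Plin4, -0.58 to 0.24 for Plin5, -0.41 to 0.47 for Cidec and -0.23 to 0.59 for Fitm2. The log2 ratio differences ran from -1.13 to 1.12 for Plin2 to Plin1, -0.098 to 0.11 for Cidec to Plin1 and -0.24 to 0.024 for Plin4 to Plin1.

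In HFD Vehicle over HFD DESeq2 called 91 genes, and leaving out 1 library gave 0 to 172 genes, -0.12 to 0.75 for Cidec and -0.17 to 0.0018 for Bscl2. In HFD PCN over HFD edgeR called 732 genes, DESeq2 2411 with 3 of the 9, edgeR without a filter 1296 and edgeR on all 12 libraries 0. Leaving out 1 library gave 0 to 5167 genes and 0 to 5 of the 9.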
